A study of Mus musculus with 5 samples.

Results

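The step from the blastocyst at E3.5 to the implanting embryo at E4.5 (E is embryonic day) was read as the log2 ratio at E4.5 minus the log2 ratio at E3.5. It uses 2 of the 5 columns of the deposited table. A step could be computed for 15241 of 15247 rows, and 15217 rows had a value at all 5 stages, the later ones being E4.75, E5.5 and E6.0. Where 5 values follow each other below, they are log2 ratios to E2.5 in order of embryonic day, from E3.5 to E6.0. The embryos were of the ICR strain and untreated, and both stages were measured against E2.5 embryos on arrays of 2 colours. E2.5 RNA carried Cy5 and the other stage Cy3, per the labels, and the E2.5 embryos were flushed out of the oviduct. Each stage had 3 pools of whole embryos, on average 61 for E3.5, 47 for E4.5 and 106 for E2.5. E3.5 embryos were flushed out of the uterus and E4.5 embryos were dissected from it, so the stage and the way of collection cannot be told apart. Each stage has 1 column, so the step carries no replicate error and no test, and rows were counted by size alone.

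The blastocyst consists of an outer epithelium, the trophectoderm, and an inner cell mass. Before and during implantation the inner cell mass sorts into epiblast, which forms the embryo proper, and primitive endoderm, which forms the yolk sac epithelia. The trophectoderm meanwhile attaches to the uterus and begins to invade it. In pools of whole embryos, fewer cells of a type and less RNA per cell give the same ratio.

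More rows were lower than higher at E4.5. At least 2-fold lower than at E3.5 were 1787 rows (11.7% of 15241), against 750 rows at least 2-fold higher (4.92%), so 70.4% of the changed rows were lower. The excess of lower rows was present at each larger fold counted. At 3-fold, 620 rows were lower (4.07%) and 183 higher (1.20%). At 4-fold the counts were 305 (2.0%) and 93 (0.610%), at 8-fold 68 (0.446%) and 26 (0.171%), and at 16-fold 24 (0.157%) and 7 (0.0459%). Lower rows thus outnumbered higher rows by a factor of 2.38 at 2-fold and 3.43 at 16-fold. The median step was -0.04, and with each column centred on its median 1713 rows were lower and 793 higher. The 5th percentile of the step was -1.49 and the 95th percentile 0.99, while the quartiles were -0.55 and 0.39. The lower side was thus the longer one in the middle of the distribution as well as at its end. With the columns scaled to a common spread, lower rows made up 66.2% of the changed rows. The lean was smaller with E4.75 in place of E4.5, where 1348 rows were lower and 1073 higher than at E3.5 (55.7% lower).

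**Figure D1:**
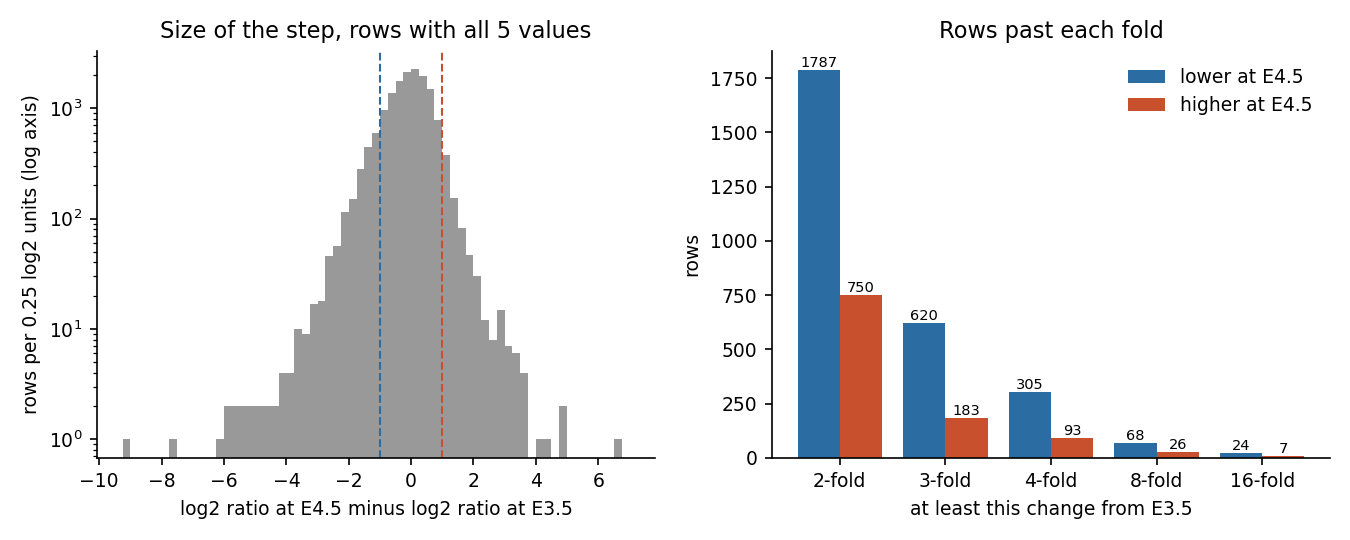
Left, number of rows (log axis) against the log2 ratio at E4.5 minus that at E3.5 for the 15217 rows with all values, with dashed lines at 2-fold. Right, rows at least 2-, 3-, 4-, 8- and 16-fold lower (blue) or higher (red) at E4.5, from 1787 and 750 down to 24 and 7; lower rows are more numerous at every fold.

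The later steps in the table did not lean the same way. Over the 15217 complete rows, 1775 were at least 2-fold lower and 742 higher at E4.5 than at E3.5 (70.5% lower). From E4.5 to E4.75, 487 were lower and 661 higher (42.4% lower). From E4.75 to E5.5 the counts were 652 and 860 (43.1% lower), and from E5.5 to E6.0 147 and 188 (43.9% lower). The step from E3.5 also had the largest spread over rows of the 4, with an SD of 0.81 against 0.57, 0.69 and 0.42. The median steps were -0.04, 0.16, -0.15 and 0.03, and the columns were not centred for these counts. These steps span unlike lengths of time, share columns and have no replicates, so the difference between them was not tested.

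In the deposited values, the largest class of lower rows moved from near the E2.5 level to below it. This class held 949 of the 1775 lower rows (53.5%), which differed from E2.5 by under 2-fold at E3.5 and were at least 2-fold below it at E4.5. The median of these 949 rows went from 0.00 at E3.5 to -1.52 at E4.5. Another 588 rows (33.1%) passed 2-fold at neither stage, with medians of 0.56 and then -0.72. A smaller set of 175 rows (9.86%) was at least 2-fold above E2.5 at E3.5 and back within 2-fold of it at E4.5, with medians of 1.31 and -0.15. Only 29 rows crossed from at least 2-fold above E2.5 to at least 2-fold below it. Another 31 rows were already at least 2-fold below E2.5 at E3.5 and went further down, to a median of -3.07. The remaining 3 rows stayed at least 2-fold above E2.5 at both stages.

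This split depends on the spread of the columns, which is smaller at E3.5 (median absolute deviation 0.26) than at E4.5 (0.41). With the columns scaled to a common spread, 569 lower rows left the E2.5 level and 636 returned to it. In the deposited values, 1.73% of all rows were at least 2-fold below E2.5 at E3.5 and 9.26% at E4.5. The shares at least 2-fold above E2.5 were 3.35% and 4.65%.

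Higher rows divided differently. Of 742 rows, 295 left the E2.5 level upwards (39.8%), with a median of -0.01 at E3.5 and 1.44 at E4.5. A further 320 (43.1%) passed 2-fold at neither stage, and 100 (13.5%) came back from at least 2-fold below E2.5, with medians of -1.36 and 0.04. The other rows were 18 that were already above E2.5 and went further up, 5 that crossed over and 4 that stayed below. Under a common spread, 179 rows left E2.5 and 313 returned to it.

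**Figure D2:**
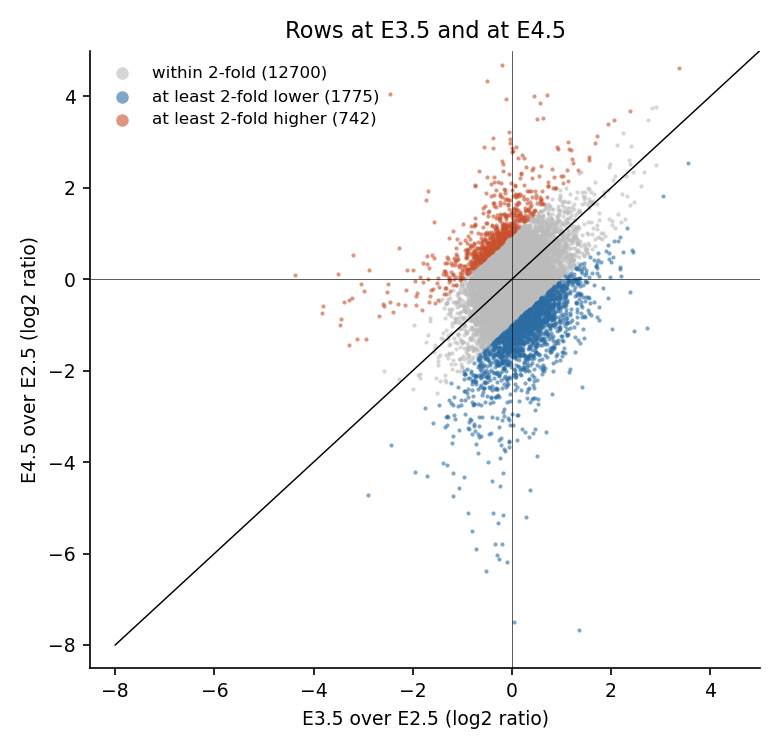
Each point is 1 of 15217 rows, with the log2 ratio to E2.5 at E3.5 on the x axis and at E4.5 on the y axis; the diagonal marks equal values. Blue marks the 1775 rows at least 2-fold lower at E4.5, most of them below 0 at E4.5 from a start near 0, and red the 742 rows at least 2-fold higher, which include a group that started far below 0 at E3.5.

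The later columns show how long these changes were seen. They were not used to choose the rows, but a later stage relative to E3.5 shares the E3.5 column with the step, and all columns are relative to E2.5. Of the 1775 lower rows, 871 (49.1%) were at least 2-fold lower than E3.5 at E4.75, where 8.86% of all rows were. The count was 731 (41.2%) at E5.5, where 7.24% of all rows were lower, and 576 (32.5%) at E6.0, where 6.14% were. Relative to E2.5, 585 of them were at least 2-fold lower at E4.75 (33.0%, against 9.02% of all rows), 484 at E5.5 (27.3%, against 5.91%) and 419 at E6.0 (23.6%, against 6.82%). The medians of the lower rows were 0.33, -1.12, -0.62, -0.48 and -0.25. By the median, the lower rows were thus near the E2.5 level again at E6.0, while their 10th percentile was still -1.90.

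Higher rows were likewise nearer to E2.5 at each later stage. Of the 742, 382 (51.5%) were at least 2-fold higher than E3.5 at E4.75 (7.03% of all rows), 310 (41.8%) at E5.5 (4.8%) and 192 (25.9%) at E6.0 (4.43%). Relative to E2.5, 251 were at least 2-fold higher at E4.75 (33.8%, against 8.88% of all rows), 155 at E5.5 (20.9%, against 4.90%) and 149 at E6.0 (20.1%, against 7.33%). Their medians were -0.36, 0.90, 0.64, 0.41 and 0.18. At E6.0, 65 of the 742 rows (8.76%) lay at least 2-fold below E2.5, the opposite side.

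Rows were then sorted by course relative to E3.5. A change was called lasting where it was at least 2-fold the same way in all 3 later columns. Among the lower rows, 413 (23.3%) were lasting, 316 (17.8%) were past 2-fold at E4.75 but not at E5.5 or E6.0, and 671 (37.8%) were past it at E4.5 alone. The other 375 rows had mixed courses. The share of all rows meeting a course rule over several columns was not counted, here or for the rows read against E2.5 below. Lasting rows had medians of 0.24, -1.66, -1.49, -1.64 and -1.55, which differed little from E4.5 on. The later columns define the classes in both directions, so the class medians there follow in part from the rule. The 316 rows lower around implantation had medians of 0.30, -1.24, -1.05, -0.22 and 0.07.

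Of the higher rows, 132 (17.8%) were lasting, 170 (22.9%) were past 2-fold at E4.75 and at neither later stage, 240 (32.3%) were past it at E4.5 alone and 200 had mixed courses. Lasting higher rows had medians of -0.27, 1.17, 1.48, 1.36 and 1.33. Measured against E2.5 in place of E3.5, 312 of the 1775 lower rows and 88 of the 742 higher rows were at least 2-fold from E2.5 in every column from E4.5 on. Of these, 283 and 74 were not yet 2-fold from E2.5 at E3.5. Only 242 of the 413 lasting lower rows and 58 of the 132 lasting higher rows were among them, so the 2 references pick partly different rows. With the later stages read against E2.5, the rows changed at E4.5 and at no later stage numbered 1054 lower and 445 higher. With scaled columns, 234 higher rows were lasting.

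**Figure D3:**
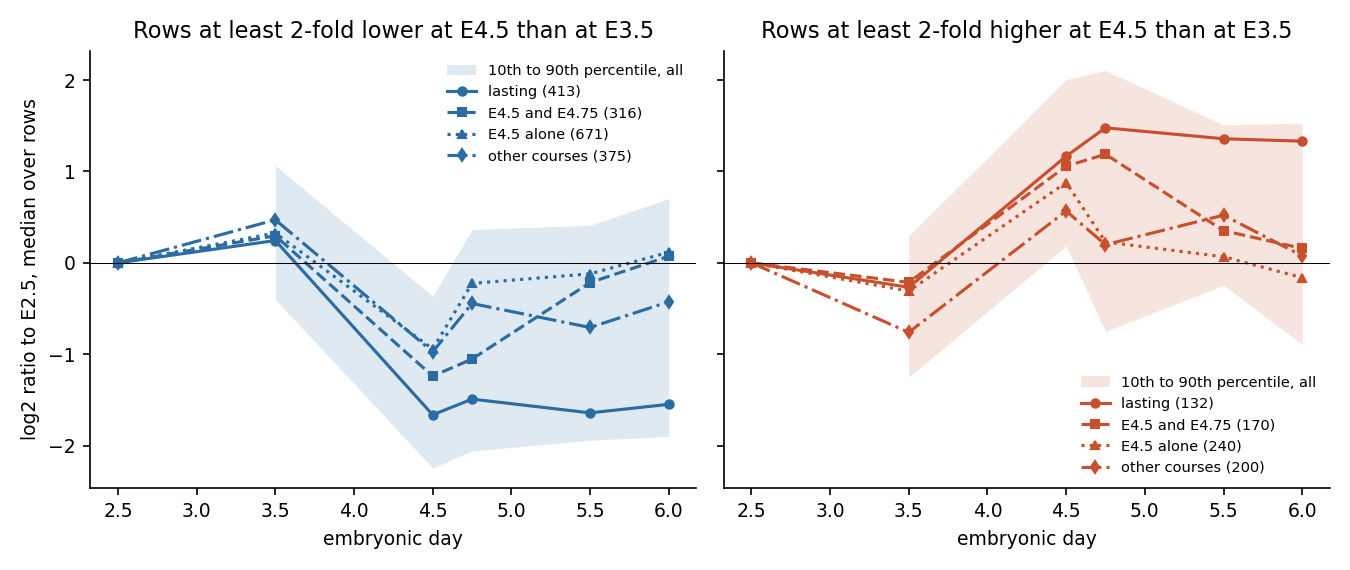
Median log2 ratio to E2.5 by embryonic day (E2.5 is 0 by definition) for the rows at least 2-fold lower (left, blue) or higher (right, red) at E4.5 than at E3.5, by later course, with the number of rows in brackets. Shaded bands span the outer deciles of all 1775 or 742 rows. Lasting rows stay at least 2-fold from E3.5 by the sorting rule. The medians of the other classes are nearer to 0 at E6.0 than at E4.5, though not at every stage between.

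Larger changes downwards were more often lasting, up to 16-fold. Of the lower rows, 15.4% of the 1478 between 2- and 4-fold were lasting, 58.1% of the 236 between 4- and 8-fold, and 38 of the 40 between 8- and 16-fold. Of the 21 rows lower by at least 16-fold with all values, 11 were lasting and 6 were lower at E4.75 and at neither later stage. Upward changes did not show this order. The lasting share was 14.8% of 655 rows between 2- and 4-fold, 46.2% of 65 between 4- and 8-fold and 5 of 17 between 8- and 16-fold, and no row of the 5 above 16-fold was lasting. Larger steps have further to go before they fall under 2-fold, so part of this order follows from the rule. Of the 24 rows with a step but without a value at a later stage, 23 lacked it at E4.75, and 12 of the 24 were lower and 8 higher at E4.5; they enter no count of the later course.

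Some of the higher rows had an alternating pattern that does not follow embryonic day. The pattern was picked out after the values were seen. In 53 of 15217 rows (0.348%) the ratio was at least 2-fold below E2.5 at E3.5, E4.75 and E6.0 and within 2-fold of it at E4.5 and E5.5. Their medians were -1.66, -0.29, -1.44, 0.01 and -1.60. These rows gave 39 of the 742 higher rows (5.26%), and 16 of the 87 at least 4-fold higher (18.4%). The reverse arrangement, high at E3.5, E4.75 and E6.0 alone, held in 20 rows and gave 4 of the 1775 lower rows. Rows low at E4.5 and E5.5 and within 2-fold in the other columns numbered 46. The 53 rows are part of the 264 rows at least 2-fold below E2.5 at E3.5, so the following values of that larger set are a description and no further support. Their medians were -1.26, -0.57, -1.18, -0.29 and -1.33. The 510 rows at least 2-fold above E2.5 at E3.5 had medians of 1.25, 0.55, 0.96, 0.54 and 0.72. Over all 15217 rows, E3.5 correlated least with E4.5 (r = 0.26) and E5.5 (0.28), and more with E4.75 (0.41) and E6.0 (0.44). By contrast, E4.5 correlated most with E4.75 (0.77) and E5.5 most with E6.0 (0.86), their neighbours in day. What set E4.5 and E5.5 apart in the alternating rows, or gave this order of correlations, was not tested. Without all alternating rows, 1783 rows were lower and 711 higher.

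Changed rows were spread along the whole table, with some unevenness. The deposited rows were taken in 40 blocks of consecutive rows, equal but for the last, which held 264 complete rows. The share of rows at least 2-fold lower ran from 6.25% in block 18 to 17.2% in block 7, with a median of 12.4%. The share of rows at least 2-fold higher ran from 2.61% in block 9 to 11% in block 40, with a median of 4.31%. Lower rows outnumbered higher rows in 37 of the 40 blocks. In the last block 23 rows were lower and 29 higher, and 15 of its 264 rows (5.68%) had the alternating low pattern, against 0.348% of all rows. Block 18 had 12 alternating rows and also more higher rows (38) than lower rows (24), while the other blocks had 0 to 4 alternating rows. Without the last block, 1763 rows were lower and 716 higher. Whether the position on the array had a part in these differences was not tested.

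**Figure D4:**
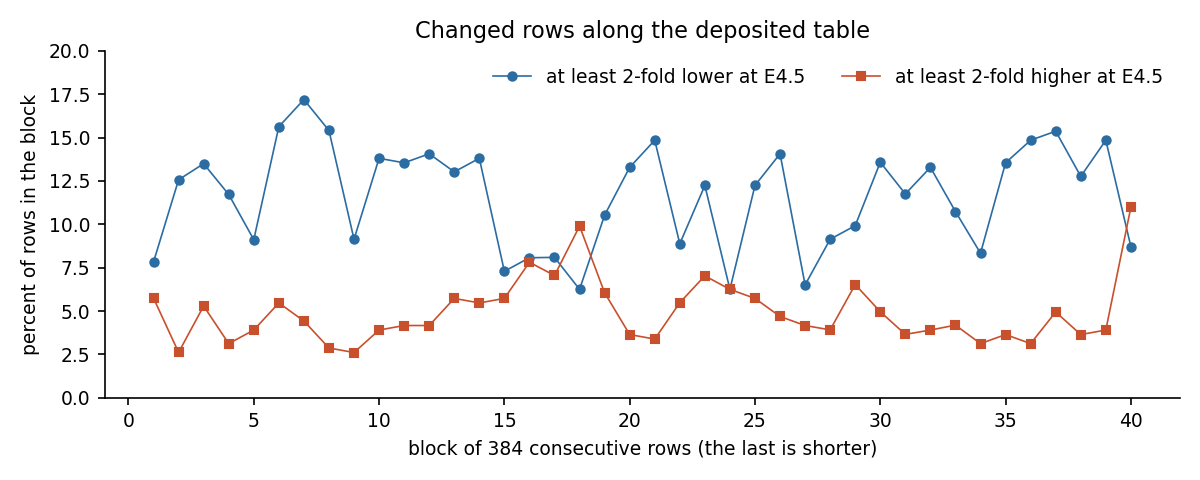
Percent of rows at least 2-fold lower (blue circles) or higher (red squares) at E4.5 than at E3.5 in each of 40 blocks of consecutive rows of the deposited table. Lower rows are more frequent in 37 blocks, and the highest share of higher rows is in the last block, at 29 of 264.

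Gene names come from the platform annotation in GEO, and the step does not bear them out. Among the rows with a step, 8074 had a single symbol, 369 had several and 6798 had none. Complete rows with a single symbol were lower in 12.2% and higher in 4.47%, and rows without a symbol in 11.2% and 5.29%. For 1309 symbols with 2 or more rows (2959 rows, 2085 pairs), the correlation of the step between rows of the same symbol was -0.0035. Beside rows at least 2-fold lower, 13.1% of the other rows of the same symbol were lower too, close to the 12.2% of all rows with a single symbol. Next to rows at least 4-fold lower, 5 of 94 such values were at least 2-fold lower, and their median was 0.05. Of the 1309 symbols, 18 had all rows at least 2-fold lower, 4 had all rows at least 2-fold higher, and 20 had rows changed in both directions. A symbol below is therefore the name the annotation gives to a row, and its value is no established measurement of that gene.

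The 15 lowest named rows ran from -9.03 to -3.80, and at E3.5 13 of them were within 2-fold of E2.5. By course, 9 were lasting, 3 were lower at E4.75 and at neither later stage, 1 was lower at E4.5 alone and 2 had other courses. The lowest was annotated Abcb8, an ABC transporter of the inner mitochondrial membrane. It read 1.36, -7.67, -9.83, 0.51 and 0.24, so that E4.5 and E4.75 were low and the other columns were not. The row annotated Bcs1l, an assembly factor of respiratory complex III, read -0.10, -6.18, -7.52, 0.26 and 0.12. An unnamed row, row 158, read 0.04, -7.50, -8.43, -0.02 and -0.37 and had the same course. The rows annotated Arl3, a small GTPase of the cilium, and Gm4981 were likewise lowest at E4.75. Arl3 read -0.31, -6.03, -8.29, -1.14 and -1.26, and Gm4981 read -0.39, -4.40, -4.63, -0.32 and 0.36. The row annotated Cfl1, the actin-severing protein cofilin, read -0.53, -6.38, -6.80, -1.25 and -1.84, so that it came back only in part.

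The lowest steps among the named lasting rows were those annotated Pias2, a SUMO ligase, and Pdxdc1. The Pias2 row read -0.26, -6.11, -5.98, -5.90 and -6.24. The Pdxdc1 row read -0.19, -5.80, -6.28, -5.97 and -6.34. Both were near the E2.5 level at E3.5 and far below it in each later column. The row annotated Egln1, a prolyl hydroxylase of the hypoxia response, read -0.73, -5.90, -5.65, -4.16 and -5.53. That annotated Efl1, a GTPase of ribosome maturation, read -0.33, -5.80, -8.63, -3.68 and -3.60. The row annotated Spin1, a chromatin reader abundant in oocytes, read 0.51, -3.86, -3.72, -3.76 and -3.46. These rows differ in whether E4.75 lies lower still, as it does for Efl1. The rows annotated Atp5a1, the alpha subunit of ATP synthase, and Slc25a26, a mitochondrial carrier, had steps of -4.30 and -4.04 and stayed under -3 afterwards. The row annotated Calcoco2, an autophagy receptor, read lower still in each later column, from -3.45 at E4.5 to -5.64 at E6.0.

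Other courses were seen among the lowest named rows. The row annotated Procr, the protein C receptor, was low at E4.5 alone, with 0.29, -5.21, 0.18, -0.41 and 0.80. The row annotated Daxx, a histone chaperone, read 2.73, -1.07, -0.56, -0.83 and 0.26. Most of its step of -3.80 was the distance from its E3.5 value down to the E2.5 level.

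The 15 highest named rows ran from 3.0 to 6.51, and 6 of them were at least 2-fold below E2.5 at E3.5. Of the 15, 4 were lasting, 3 were past 2-fold at E4.75 and at neither later stage, 3 were higher at E4.5 alone and 5 had other courses. The last block of the table held 5 of these rows. The highest was annotated Aspm, a spindle pole protein, with -2.46, 4.05, 5.37, 0.11 and -2.17. The row annotated Gata4, a transcription factor of the primitive endoderm, read -0.50, 4.33, 0.31, -0.14 and -0.23. An unnamed row, row 14668, read -0.20, 4.68, -0.75, -1.28 and -1.41. Both of these were high at E4.5 alone, and row 14668 was more than 2-fold below E2.5 at E5.5 and E6.0. The rows annotated Eed, a subunit of Polycomb repressive complex 2, and Cts8, a placental cathepsin, had steps of 3.29 and 3.11 and were within 2-fold of E2.5 at every other stage. That annotated Dmtf1 read 2.37 at E4.5 and 0.40 at E4.75.

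Gains that stayed were seen in rows annotated Arl1, Ccdc124, Fxyd3 and Vcan. The row annotated Arl1, a GTPase of the Golgi, read 0.57, 3.86, 5.80, 5.13 and 5.28. The row annotated Ccdc124 read 0.52, 3.52, 5.27, 5.62 and 5.51. The row annotated Vcan, the matrix proteoglycan versican, read 0.63, 3.53, 4.42, 5.45 and 5.38. In these 3 rows E4.5 was an intermediate point, and the ratio was higher in every later column. The row annotated Fxyd3, a regulator of the sodium pump, was highest at E4.5 (2.97) and read 1.82 at E6.0. The rows annotated Taldo1 and Pgk1 were highest around implantation. The row annotated Taldo1, an enzyme of the pentose phosphate pathway, read 0.45, 4.02, 5.68, -0.32 and 0.00. The row annotated Pgk1, a glycolytic enzyme, read 0.70, 4.03, 3.79, 1.35 and 1.66.

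Several high steps came from rows that were low at E3.5 and then near the E2.5 level. The row annotated Rab32, a GTPase of organelle transport, read -4.37, 0.09, -1.98, -0.23 and -3.58. The rows annotated Shprh, a ubiquitin ligase, and Pfkm, a phosphofructokinase, had the same alternation. Shprh read -3.20, 0.54, -2.27, 0.19 and -1.28, and Pfkm read -2.88, 0.21, -2.12, -0.10 and -1.46. The row annotated Mmp2, a matrix protease, read -3.27, -0.45, -3.26, 0.00 and -4.95, and that annotated Timm22, a mitochondrial import protein, read -3.39, -0.50, -1.90, -0.01 and -2.16. For these rows the step says that E3.5 was low, not that E4.5 stood above E2.5. The row annotated Rbfox2, a splicing factor, was low at E3.5 alone (-3.50) and lay between -0.15 and 0.12 in the later columns.

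**Figure D5:**
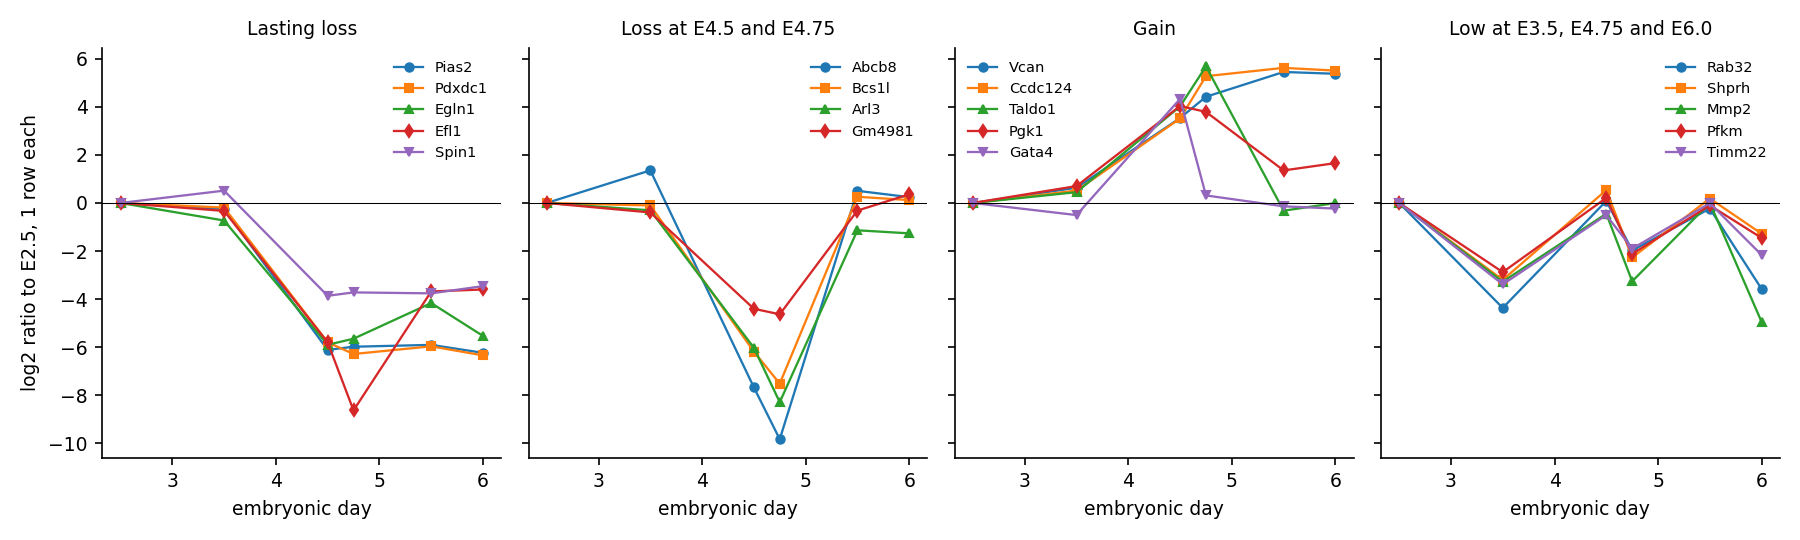
Log2 ratio to E2.5 by embryonic day for single rows under the annotation's names, in 4 panels by course; each line is 1 row and has no replicate. Pias2 and Pdxdc1 stay near -6 from E4.5 on, Abcb8, Bcs1l, Arl3 and Gm4981 are lowest at E4.75, Gata4 is high at E4.5 alone, and the last panel shows rows low at E3.5, E4.75 and E6.0.

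Where the symbols of these extreme rows had other rows, those rows did not share the step as a set. For 10 such symbols there were 13 other rows, with steps from -1.64 to 1.06, and 10 of them were within 2-fold. The other row annotated Pias2 had a step of 0.35, that annotated Pdxdc1 -0.09 and that annotated Egln1 0.73. The 4 other rows annotated Spin1 ran from -0.85 to 0.39. The other row annotated Aspm had a step of -1.64, against 6.51 in the row named above. Calcoco2 (-1.0 in its other row) and Eed (1.06) had both rows past 2-fold in the same direction.

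The genes of the 3 lineages of the implanting embryo gave no common direction under these names. Over all 6412 symbols, with the rows of a symbol averaged, 688 were at least 2-fold lower (10.7%) and 241 higher (3.76%), with a median step of -0.07. Of 22 measured primitive endoderm symbols, 1 was lower (Nid1, a basement membrane protein, -1.09) and 1 higher (Gata4), with a median of 0.06. Of 24 trophectoderm symbols, 1 was lower (Plac1, a placental protein, -2.33) and 1 higher (Krt19, a keratin, 1.04), with a median of -0.13. Among 17 naive pluripotency symbols, 3 were lower and none higher, with a median of -0.10. These were Klf5 (-2.16), Upp1 (-1.24) and Tbx3 (-1.15). Of 10 symbols of the later, formative epiblast, Otx2, a transcription factor of the early anterior embryo, had a step of 1.47 and Tdgf1, the Nodal co-receptor, of -1.06.

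Of 27 measured key genes, 2 were at least 2-fold lower (7.41%) and 2 higher (7.41%), against 10.7% and 3.76% of all symbols. The row annotated Nanog, a pluripotency factor, had a step of 0.18, Eomes, a trophoblast regulator, of 0.90, Krt8 of -0.17 and Krt18 of 0.36, the last 2 being keratins of the trophectoderm. Among names with several rows, some had rows with steps of opposite sign and some did not. The rows annotated Gata6, a primitive endoderm factor, had steps of -0.13 and 0.70, and those annotated Dab2, an endocytic adaptor, of -0.94 and 0.75. For Lrp2, the megalin receptor of endocytosis, the rows had steps of 0.20 and 0.29. Across the 21 measured symbols of that receptor's endocytic pathway, 1 was lower (Ehd1, -1.47) and none higher, with a median of 0.08.

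Counts for lists of general cell functions stand beside 10.7% lower and 3.76% higher of all symbols. Differences between the lists were not tested. Of 59 ribosomal proteins, 10 were lower (16.9%) and 2 higher (3.39%), with a median of -0.09. Rps7 (-2.15) and Rps25 (-1.95) were the lowest and Rps26 (2.05) the highest. Of 30 proteasome symbols, 5 were lower and none higher, with a median of -0.26. These were Psme3 (-2.42), Psmd3 (-1.96), Psma6 (-1.94), Psmb1 (-1.59) and Psmb5 (-1.41). Of 42 symbols of oxidative phosphorylation, 6 were lower and 5 higher, with a median of -0.04. Of the 6 lower symbols, Atp5b has a mean step of -1.38 over 3 rows and is within 2-fold by their median of -0.85. Atp5a1 stood lowest at -4.30 and Uqcrh, a subunit of complex III, highest at 1.72. Of 38 mitosis symbols, 5 were lower and 1 higher, with a median of -0.18, and Ccnb2, a B-type cyclin, was the higher one at 1.59. Of 37 translation factors 3 were lower and none higher, Eif5a (-1.51), Eif3k (-1.49) and the poly(A)-binding protein Pabpc1 (-1.46). Of 35 actin cytoskeleton symbols 5 were lower and 4 higher, and of 14 glycolysis symbols 2 were lower and 2 higher. The glycolysis symbols were Gapdh (-2.10) and Pdk1 (-1.04) below and Pfkm (3.09) and Pgk1 (3.33) above. The Pfkm row was low at E3.5 (-2.88) and near the E2.5 level at E4.5 (0.21).

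The lists of oocyte and signalling symbols had few members past 2-fold. Over all symbols, 10.7% were lower and 3.76% higher. The lower shares were 12.9% for oocyte and cleavage, 11.1% for TGF-beta, 11.1% for fibroblast growth factor and 7.69% for Wnt symbols. None of these lists had a higher member. Matrix symbols were lower in 3.45% and higher in 10.3%. Of 31 symbols of the oocyte and cleavage stages, 4 were lower and none higher, with a median of 0.07. These were Bcl2l10 (-1.58), an apoptosis regulator, Zp2 (-1.51), a zona pellucida protein, Nlrp14 (-1.32) and Spin1 (-1.07). The Spin1 mean rests on the 1 row of 5 named above, and with the median over its rows Spin1 has a step of -0.65 and is not past 2-fold. Of 18 symbols of the TGF-beta family, Bmp4, a secreted ligand, had a step of -1.46 and Tdgf1 is named above, and none was higher. Fgfr1, a receptor of fibroblast growth factors, was the lower one of 9 at -1.38, and Ctnnb1, the Wnt effector and junction protein beta-catenin, the lower one of 13 Wnt symbols at -1.5. Of 29 basement membrane and matrix symbols, Nid1 was lower and 3 were higher, Bgn (1.22), Mmp2 (2.83) and Vcan (2.90). The Mmp2 row was low at E3.5 (-3.27) and did not stand above E2.5 at E4.5 (-0.45). Of 8 cholesterol synthesis symbols none passed 2-fold, and their median was -0.57.

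Together, the 32 lists held 688 measured symbols, with 74 lower (10.8%) and 31 higher (4.51%), close to the shares of all symbols.

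E4.5 embryos were dissected from the uterus, so symbols of maternal tissue were looked at too. Over all symbols, 10.7% were lower and 3.76% higher. The shares below were 11.8% lower for uterus and decidua and 9.09% higher for blood. For heat shock and handling they were 14.3% lower and 4.76% higher. These lists are small, and the differences from all symbols were not tested. Of 17 measured symbols of uterus and decidua, 2 were lower (Col6a2, a collagen of connective tissue, -2.0, and Igfbp3, a growth factor binding protein, -1.17) and none higher, with a median of 0.02. Of 11 blood symbols none was lower and 1 was higher (S100a9, a protein of granulocytes, 1.25), with a median of -0.39. Ratios give no level, so the presence of a marker could not be read, and the part of maternal tissue in the step was not tested. Of 21 symbols of heat shock and handling, 3 were lower, among them Atf3 (-2.20) and Hspa8 (-1.42 and -1.27 in its 2 rows), and 1 was higher (Dnajb6, 1.08). All list values carry the limit of the names given above.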

How the data were processed

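The authors deposited 1 table with 15247 rows and a column for each of 5 stages. Its values are log ratios of the stage to E2.5, per the labels, and were read here as log2; no source used here states the base. Per the labels' protocols, PCR amplification (SMART) of the pools' cDNA came before labelling. No source used here states the background correction, the normalization, the filtering or how the 3 pools of a stage entered its column. No intensities were used, so no signal stands behind a ratio here, and the few arrays limit its precision. Stages are named by their titles; for E4.75 and E6.0 the labels' protocols give 4.8 and 6.5 days.

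The step is the E4.5 value minus the E3.5 value of a row, with no normalization added. E2.5 was read on the 2-colour arrays of each stage, so it cancels in the step only as far as those readings are equal. A change is a step of at least 2-fold (1 on the log2 scale). Symbols came from the platform annotation in GEO, updated through the Entrez identifier for 8055 of 8074 rows with a single symbol (RefSeq, GRCm38.p6). Python 3.11.15, pandas 2.3.3 and NumPy 2.4.6 were used, and the class rules were tested on simulated data.

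The part of the data, the gene lists and the rules were chosen with earlier results of these data known. Named rows are the 15 lowest and 15 highest by the step among complete rows with a single symbol, the 5 largest per later course and direction, up to 3 per gene list and the key genes; the text gives a part of them. Alternatives were other folds, centring, scaling, natural logarithms, other sets of rows, symbols, E4.75 in place of E4.5 and E2.5 as the later reference. Leaving out alternating rows and the last block of rows was added after the data had been seen.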

Additional observations from a re-analysis of the deposited data

How the results depend on the processing

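Counts are given as lower and then higher rows at E4.5. A larger threshold takes fewer rows by construction: 620 and 183 at 3-fold, 305 and 93 at 4-fold. If the values are natural logarithms, more rows pass 2-fold, 3011 and 1802. Fewer units were counted with rows that have 1 symbol (988 and 364) and with the mean or the median over the rows of a symbol (688 and 241 in each). Centring, scaling, complete rows, E4.75 in place of E4.5, and leaving out alternating rows or the last block kept both counts within 1.5 times. With E4.75 in place of E4.5, 55.7% of the changed rows were lower, against 70.4%, with 1348 lower and 1073 higher. For the later course at 3-fold, 139 lower and 29 higher rows were lasting, 114 and 35 were changed at E4.75 and at neither later stage, and 254 and 63 at E4.5 alone. Against E2.5, 202 lower rows were changed at E4.75 and at neither later stage, and 1054 and 445 at E4.5 alone. With scaled columns, 234 higher rows were lasting. Scaling stretches the E3.5 column and shrinks the E4.5 column. Under it, 569 lower and 179 higher rows left the E2.5 level, and 636 and 313 returned to it. Of 70 such comparisons, 44 stayed within 1.5 times. Centring moved 1 of 162 named rows across 2-fold and scaling 11, and none that was past 2-fold changed sign. No paired analysis was possible because each stage has 1 column and the labels give no replicate numbers. Without intensities, how dim spots limit these counts could not be seen.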
